A study of Mus musculus with 3 samples.

Results

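The cells described here were a group of luminal epithelial cells of the mouse larynx, chosen by the expression of Sult1b1, Atp6v0a4, Kcnj16 and 4 further genes. A barcode was kept when it held 500 to 8000 genes, 1000 to 40000 unique molecular identifiers (UMIs, each standing for 1 captured transcript) and at most 8% mitochondrial UMIs, and did not hold UMIs of Krt5, Ltf, Scgb3a1 and Dcn all together. It was then a member when at least 4 of the 7 gate genes Sult1b1, Slco1a5, Tmem213, Alox12e, Ces1h, Kcnj16 and Atp6v0a4 had a UMI and when Scgb3a2 and Krt13 each stayed under 20 UMIs per 10000 of the cell. By this rule 963 barcodes were luminal cells, 244 in library 1, 188 in library 2 and 531 in library 3, out of 41033 barcodes that passed the limits and 60530 in all. They were compared with the 28091 other barcodes that held a UMI of Epcam, the epithelial adhesion molecule. Of the 963 luminal cells, 959 held an Epcam UMI as well.

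All 3 libraries came from Lrig1CreERT2/+; ROSA-LSL-tdTomato/+ mice, each a pool of 10 larynges from 5 male and 5 female animals, and had the same treatment. Tamoxifen activates the Cre made from the Lrig1 locus and switches on the red reporter tdTomato in cells that express Lrig1, so that all sequenced cells had been sorted for tdTomato, 1 day after recombination. No library held unsorted cells, so shares here are shares of sorted cells. Since the libraries are replicates of 1 condition, every comparison below is between groups of cells within the libraries, and the p-values measure how evenly a difference was found over 3 pools.

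The larynx is lined by stratified squamous epithelium over the vocal folds and by pseudostratified respiratory epithelium elsewhere. In both, basal cells rest on the basement membrane and carry Krt5, Krt14 and the transcription factor Trp63. Above them, cells of the squamous epithelium carry squamous keratins such as Krt13 and Krt4, while luminal cells of the respiratory epithelium face the airway, carry the simple keratins Krt8, Krt18 and Krt19, seal the layer with claudins and cover it with mucins. The gate genes belong to transport and small-molecule metabolism: Atp6v0a4 is a membrane subunit of the V-ATPase, the pump that acidifies vesicles and, in specialised cells, the lumen, Kcnj16 is an inward rectifier potassium channel subunit, Slco1a5 takes up organic anions, Sult1b1 attaches sulfate to phenols and thyroid hormones, Ces1h is a carboxylesterase and Alox12e a lipoxygenase.

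Luminal cells were more deeply covered than the cells they were compared with. Their median UMI number was 22943, 27726.5 and 23036 in libraries 1, 2 and 3, and that of other Epcam-positive cells 12931, 17596 and 14128. Summed over the cells, the luminal groups held 5375690, 5112852 and 12320639 UMIs. A doublet score marked 2.87, 1.06 and 14.3% of luminal cells and 8.23, 4.57 and 12.5% of other Epcam-positive cells. Barcodes with UMIs of Krt5, Ltf, Scgb3a1 and Dcn together, which the rule removes, made up 12, 5.13 and 22.7% of barcodes within the limits, so library 3 stood apart in mixed barcodes, and results are given without it where it mattered. The share of barcodes called doublets was set to grow with the number of barcodes in a library, so its difference between libraries follows in part from that setting. The libraries shared 46, 165 and 96 barcode sequences in pairs, and no luminal cell of one library had the barcode of a luminal cell of another.

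Luminal cells were 3.40% of Epcam-positive cells in library 1 (95% Wilson interval 3.01 to 3.85), 3.71% in library 2 (3.23 to 4.27) and 3.16% in library 3 (2.90 to 3.43), a mean of 3.42% ± 0.278 (SD, n = 3). The intervals cover counting error only. The share was alike in the 3 pools, but its size depends on depth and on the gate. In the 25608 of 29054 Epcam-positive or luminal cells that reached 5000 UMIs, each thinned to that number, it was 1.17%, with at least 5 gate genes 1.76% and with at least 3 gate genes 6.26%. The gate passed 0 of 482 endothelial cells, which allows a share of up to 0.622%, and 1 of 2989 fibroblasts, at median depths of 5362 to 7841 and 9015 to 11461 UMIs. Of the endothelial cells 421 came from library 1, and the upper Wilson bounds by library were 0.904, 11.4 and 11%. A further 46, 20 and 88 cells had 4 or more gate genes but were left out for Scgb3a2 or Krt13 at the limit.

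The genes that chose the cells are given as a description, with no test. Values are in CPM, the UMIs of a gene per 1000000 UMIs summed over a group of cells in 1 library. Sult1b1 stood at 214, 214 and 224 CPM in luminal cells of libraries 1, 2 and 3 and at 10.8, 9.76 and 16.0 CPM in other Epcam-positive cells. Atp6v0a4 stood at 219.9, 213 and 205 CPM against 16.4, 20.3 and 19.1 CPM, and was detected in 86.1, 88.8 and 90.4% of luminal cells. For Kcnj16 the values were 233, 189 and 142 CPM in luminal and 14.4, 18.3 and 9.08 CPM in other cells. Among these the level of Sult1b1 was the most even over the libraries, while Kcnj16 was highest in library 1 and lowest in library 3. Slco1a5 was found at 186, 139 and 107 CPM and Tmem213 at 219.5, 228 and 148 CPM. The remaining gate genes, Alox12e at 134, 163 and 66.8 CPM and Ces1h at 179, 89.4 and 203 CPM, were the most uneven over libraries. Alox12e had a UMI in 41.0, 52.7 and 32.2% of luminal cells and was the gate gene detected in the fewest of them.

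**Figure D1:**
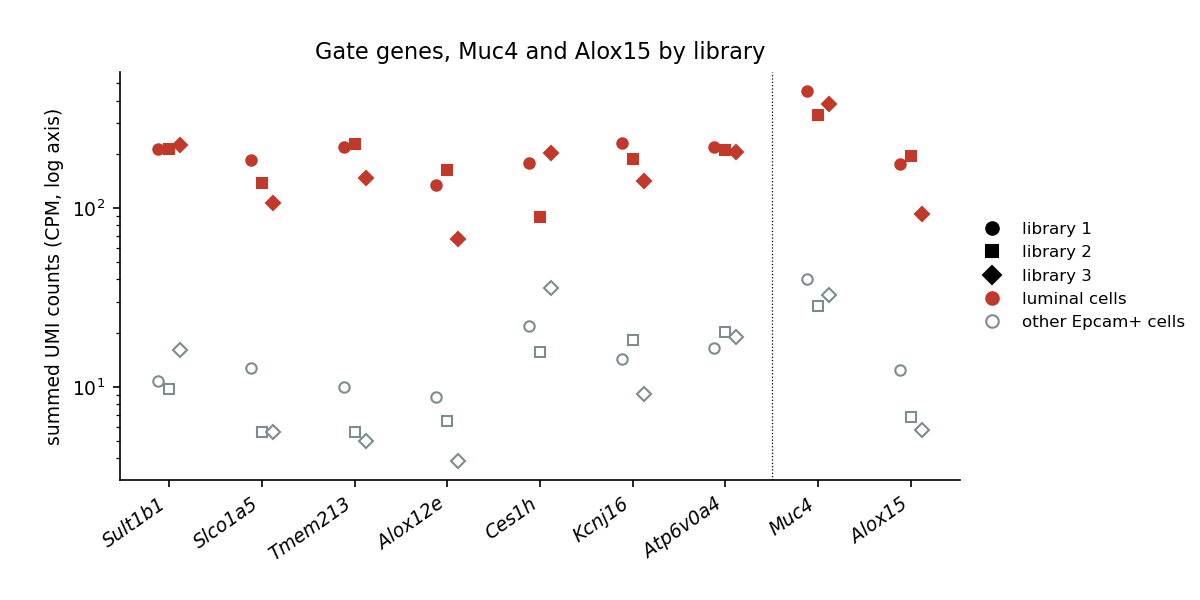
The plot gives the level of each gate gene, of Muc4 and of Alox15 in the summed luminal cells (filled) and other Epcam-positive cells (open), in CPM on a log axis, with 1 point per library. Filled and open points do not overlap for any gene, and the gate genes, left of the dotted line, do so by the rule; Muc4 stood at 455, 334 and 385 CPM in luminal cells and at 40.4, 28.5 and 32.7 CPM in the others.

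In the annotation of GRCm39, Tmem213 (chr6:38086190-38092744, plus strand) lies within the span of Atp6v0a4 (chr6:38025418-38101521, minus strand), so these gate genes are not independent positions of the genome, although the 3′ libraries keep the strand. Sult1b1 lies at chr5:87661191-87686072 (minus), Slco1a5 at chr6:142179953-142268788 (minus), Kcnj16 at chr11:110858843-110927617 (plus) and Ces1h at chr8:94078471-94106353 (minus). The lipoxygenases Alox12 (chr11:70132283-70146221), Alox12e (chr11:70206436-70213454) and Alox15 (chr11:70234970-70242858), all on the minus strand, lie close together on chromosome 11. Ces1h, Slco1a5 and the lipoxygenases have close relatives in the genome, and how reads shared with a relative were assigned was not examined.

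Cell numbers and mean levels changed gradually over the edge of the gate. In libraries 1, 2 and 3, 186, 154 and 465 Epcam-positive cells had 3 gate genes and stayed just outside, and 115, 91 and 264 had 4 and were just inside. Median UMIs rose over this edge, in library 1 from 11437 in cells with no gate gene to 20071 with 3, 21064 with 4 and 29003.5 with all 7. Muc4, a mucin anchored in the apical membrane that was not part of the rule, stood in library 1 at 13.1 CPM in cells with 0 gate genes, at 167 CPM with 3, at 289.8 CPM with 4 and at 681 CPM with 6 or 7. Trp63 went the other way, from 658 CPM to 247, 163 and 48.3 CPM. The means thus showed no break at the limit of the gate. Each mean mixes cells, and depth rose with the number of gate genes. Whether single cells form a gradient or a separate group detected in part was not tested.

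**Figure D2:**
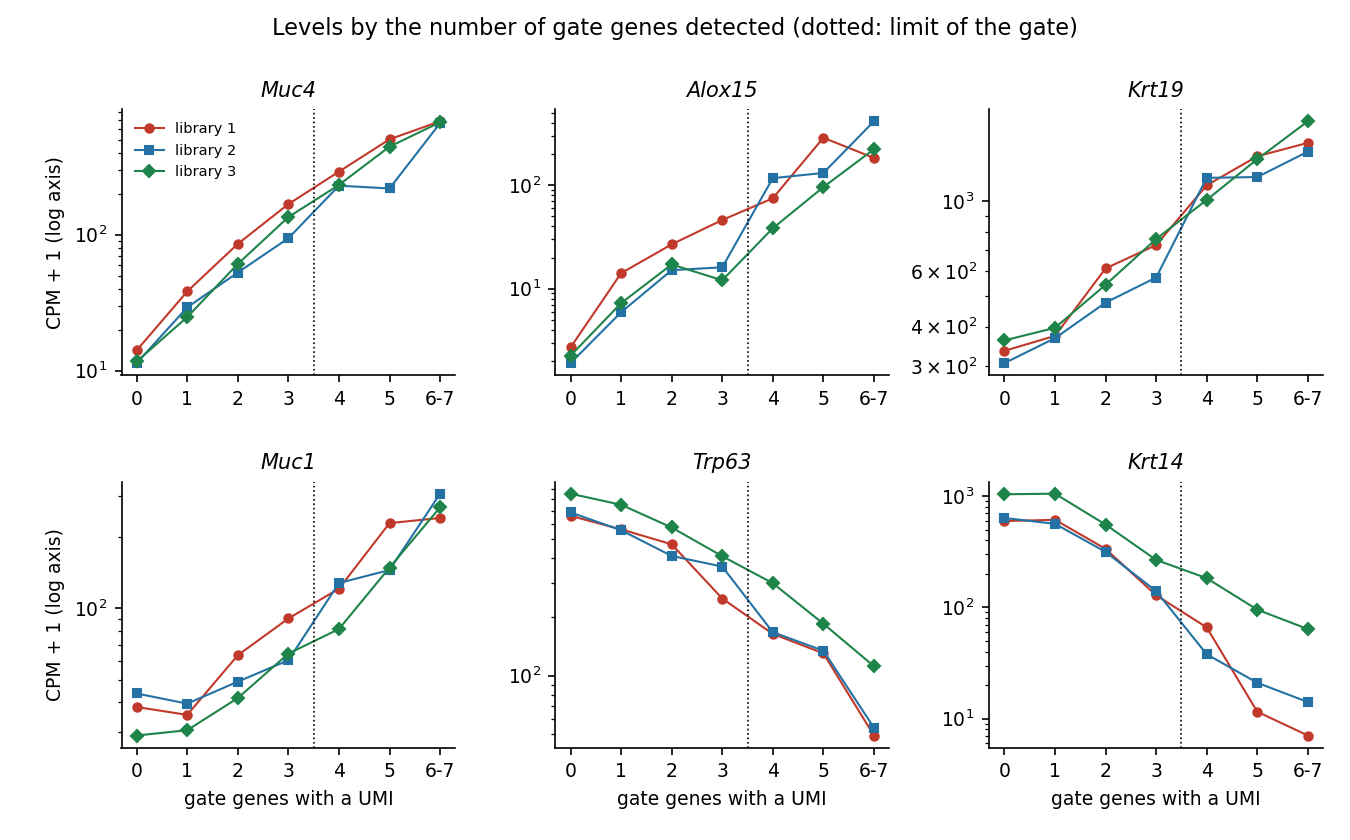
Levels of Muc4, Alox15, Krt19, Muc1, Trp63 and Krt14 are plotted in CPM plus 1 on a log axis against the number of gate genes with a UMI, with 1 line per library and a dotted line at the limit of the gate. Muc4 went from 13.1, 10.4 and 10.7 CPM at 0 gate genes to 681, 659 and 669 CPM at 6 or 7, and Trp63 from 658, 685 and 855 to 48.3, 53.1 and 111 CPM.

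Clustering of all Epcam-positive and luminal cells without the genes of the rule placed 707 of the 963 luminal cells (73.4%) in 1 of 25 clusters, and 147 (15.3%) and 41 (4.26%) in the next 2. That cluster held 1512 cells, 378, 284 and 850 by library, of which 46.8% were luminal cells by the gate. Of cells under the limits for Scgb3a2 and Krt13, it took 0.296% of those with no gate gene, 34.7% of those with 3, 60.2% of those with 4 and 93.5% of those with all 7. Among the 15 nearest neighbours of a luminal cell, 59.5, 54.8 and 51.7% were luminal cells as well, against 1.52, 1.48 and 1.82% for other Epcam-positive cells. The gated cells thus lay together in genes the gate did not use, with about as many ungated cells among them. This is a description and not independent evidence for the group, because the gate genes came from earlier results on the same cells. Finer or coarser clustering moved the share of luminal cells held by 1 cluster to 40.0 and 84.3%.

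Muc4 and Alox15, an arachidonate lipoxygenase, were named as markers of these cells with results of these data in view, and their values are a description. In libraries 1, 2 and 3, Muc4 was detected in 87.7, 83.5 and 88.3% of luminal cells and in 15.3, 14.1 and 15.3% of other Epcam-positive cells. Cells under 5000 UMIs were left out and the others thinned to that number, which kept 230, 184 and 525 luminal cells of 244, 188 and 531 and 5709, 4576 and 14384 other Epcam-positive cells of 6929, 4877 and 16285. In these the shares were 70.4, 53.8 and 63.0% and 9.28, 7.01 and 8.01%. In fibroblasts, which should lack it, 2.28, 1.14 and 1.29% of cells had a Muc4 UMI. Alox15 stood at 176, 196 and 92.2 CPM in luminal cells and 12.4, 6.78 and 5.75 CPM in others, and was detected in 41.4, 43.6 and 32.4% of luminal cells. In fibroblasts 0.499, 1.14 and 0.530% of cells had an Alox15 UMI. A luminal cell with no UMI may still express the gene. In 96, 75 and 166 luminal cells there were UMIs of both Muc4 and Alox15.

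Against other Epcam-positive cells, edgeR's quasi-likelihood test with the library as a block found 5718 of 17536 genes different at an adjusted p under 0.05, 2853 higher and 2865 lower in luminal cells (32.6% of tested genes, 16.3% in each direction). The counts for gene lists below are read against these shares, and cover genes that did not choose the cells and passed the filter on low counts. Without library 2, 3438 genes differed, with cells matched in depth 3067, and without the library block 3538. In brief, luminal keratins, claudins, membrane mucins and several lipoxygenase and xenobiotic enzymes were higher, and basal, ciliated and neuroendocrine genes lower. Because the gate genes were drawn from earlier results on the same cells, these counts describe the group and are not independent evidence for it.

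**Figure D3:**
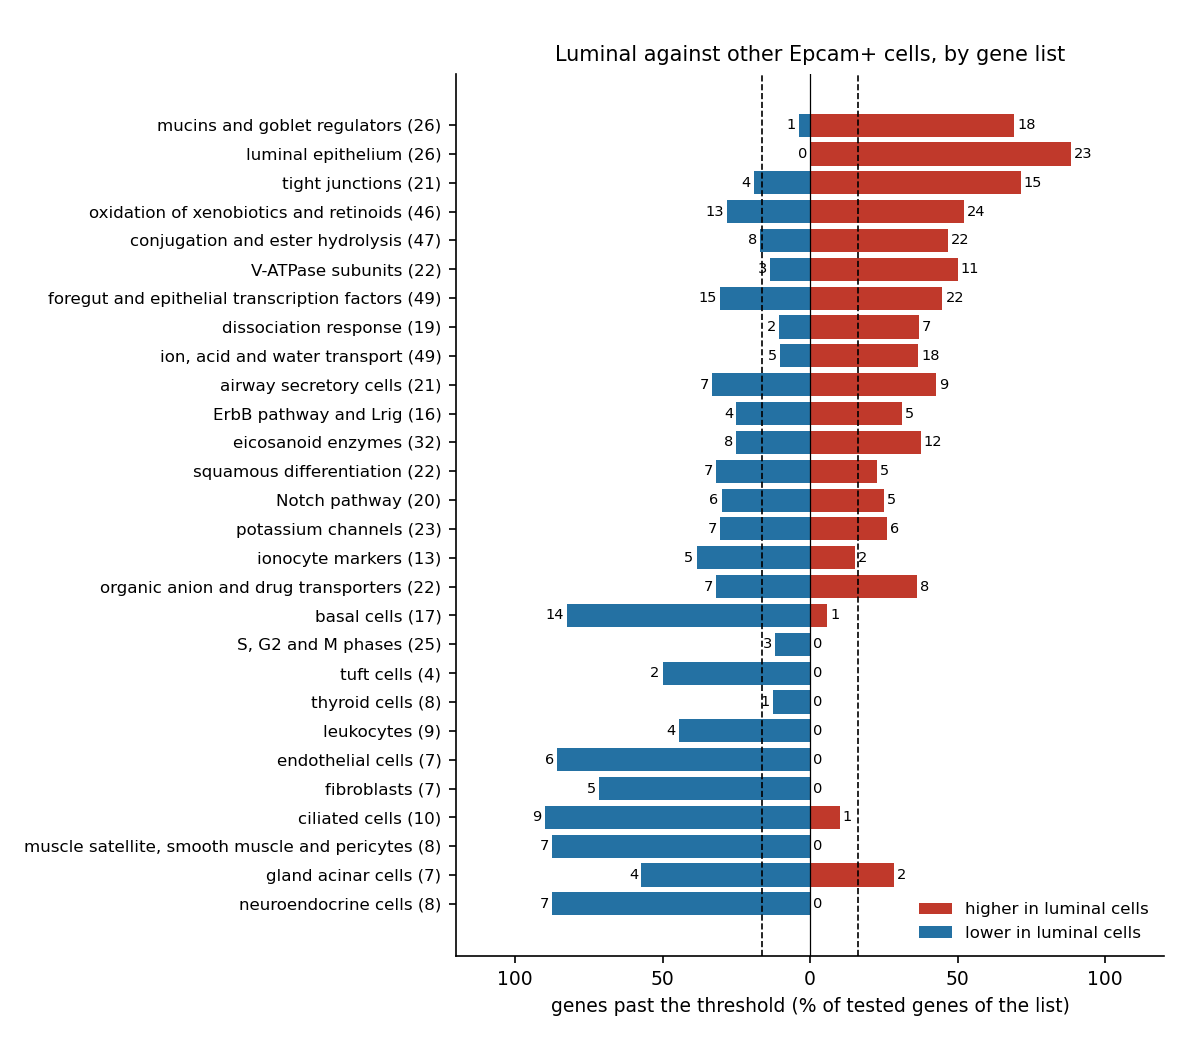
For each gene list the bars give the share of tested genes that passed the threshold, higher (right) or lower (left) in luminal than in other Epcam-positive cells, with the number of genes at the bar end and the number tested in parentheses. Dashed lines mark the 16.3% of all tested genes called in each direction; luminal epithelium, with 23 of 26 genes higher, and tight junctions, with 15 of 21, reach furthest to the right.

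Of 26 tested genes of luminal epithelium, 23 were higher in luminal cells and 0 lower, with a median log2 fold change of 1.04 beside -0.01 over all genes. The list also holds Krt4, named above as a squamous keratin. Against the Krt13-high cells described below, 12 of the 26 genes were higher and 3 lower (median 0.38). The summed list was there at 10463, 9620 and 10588 CPM in luminal and 7703, 7967 and 11358 CPM in Krt13-high cells. Tight junction genes were higher in 6 of 21 and lower in 3 cases against Krt13-high cells. Krt19, a keratin of simple epithelia, stood at 1309.8, 1248 and 1275 CPM in luminal cells and 405, 374 and 451 CPM in other Epcam-positive cells, a log2 fold change of 1.78 ± 0.06 (SE; adjusted p = 3.6e-05). Krt8 was at 432, 364 and 477 CPM against 144, 125 and 149 CPM. For both keratins every luminal value exceeded every other value. The uroplakin Upk1b, a membrane protein of urothelium and other barrier epithelia, was 0.83 higher on the log2 scale. Of tight junction genes, 15 of 21 were higher and 4 lower (median 0.87), with the barrier claudins Cldn4 at 187, 226 and 195 CPM against 118, 131 and 116 CPM and Cldn7 at 604, 559 and 579.6 CPM against 222, 175 and 237 CPM.

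Basal genes were mostly low in luminal cells, with 1 exception of size. Of 17 tested basal genes 14 were lower and 1 higher (median -0.88). Krt14 was at 32.7, 26.2 and 131 CPM in luminal cells, highest in library 3, and 579, 546 and 929.6 CPM in others (-3.51 ± 0.29, SE, adjusted p = 4.5e-04). Trp63, the transcription factor that maintains basal cells, was at 123, 128 and 224 CPM against 569.9, 587 and 726 CPM (-1.88 ± 0.11, adjusted p = 1.2e-04). Krt15 was the gene that was higher, at 6489, 6351 and 7672 CPM against 2845, 3115 and 5564 CPM (1.04 ± 0.13, adjusted p = 0.00224), so that the summed CPM of the basal list, 9766, 9601 and 12214 in luminal and 8652, 9159 and 13063 in other cells, did not separate the groups. The Delta-like protein gene Dlk2 (-3.76) and the hemidesmosome laminin chain Lamb3 (-2.62) were lower too. Of 22 tested squamous differentiation genes, 5 were higher and 7 lower (median -0.15).

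Basal genes were found in many luminal cells. Trp63 had a UMI in 645 of the 963, and Krt15 was high, as given above. Krt5, which also entered the rule for mixed barcodes, reached at least 10 UMIs per 10000 in 290 of 963 luminal cells, 41, 43 and 206 by library, so library 3 held the larger share of them. Muc4 stood at 184, 95.6 and 163 CPM in these cells and at 519, 413 and 535 CPM in the remaining 673. Alox15 was at 14.7, 8.69 and 14.1 against 214, 257 and 145 CPM, Lyz2, the lysozyme of airway and gland secretions, at 143, 153 and 268 against 3719.9, 4295 and 4067 CPM, and Cyp2a5, a cytochrome P450 of nasal and airway epithelium, at 332, 239 and 313 against 1912, 2192 and 1152 CPM. Trp63 was the higher in the Krt5 cells, at 192, 251 and 282 against 106, 87.3 and 185 CPM, while Krt15 was high in both, at 8176, 8454 and 9145 and 6092, 5659 and 6676 CPM. Other Epcam-positive cells had Muc4 at 40.4, 28.5 and 32.7 CPM, below the Krt5 cells. Their Alox15, at 12.4, 6.78 and 5.75 CPM, was much nearer to the Krt5 cells than to the remaining luminal cells. Lyz2 was lower in the Krt5 cells than in other Epcam-positive cells in every library. Median UMIs were 25303, 30538 and 23719 in the Krt5 cells and 22691, 26766 and 22457 in the remaining ones. The split was chosen after the values were seen and carries no test. Whether both parts are 1 cell type was not tested. Without the Krt5 cells 5089 genes differed from other Epcam-positive cells, 2544 higher and 2545 lower.

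Mucins and their regulators were largely higher, 18 of 26 tested with 1 lower (median log2 fold change 1.40). The membrane mucin Muc1 stood at 185, 176 and 139 CPM in luminal cells and 49.2, 47.3 and 36.0 CPM in others (2.06 ± 0.05, SE, adjusted p = 1.7e-05). Muc16, another membrane mucin of wet surfaces, was at 828, 613 and 659 CPM against 323, 227 and 271 CPM (1.5 ± 0.05, adjusted p = 3.6e-05). Muc21 (4.05), the sialyltransferase St6galnac1 (3.85), which caps mucin sugars, and the glycosyltransferases Fut9 (3.30) and St8sia6 (2.91) were higher too. The products of these genes are surface mucins or enzymes that build glycans. Against the Scgb3a2-high cells described below, 10 of 22 genes of the mucin list were higher and 4 lower (median 0.28). The gel-forming mucins, which goblet and gland cells secrete, were carried by few luminal cells.

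Muc5ac, the gel-forming mucin of goblet cells, had a UMI in 21 of the 963 luminal cells (2.18%), 5, 4 and 12 by library. Those 21 cells held 91.3% of the Muc5b UMIs of all luminal cells, 86.3% of the UMIs of the secreted trefoil peptide Tff1, 58.8% of those of the lectin Itln1, 40.3% of those of the goblet cell transcription factor Spdef and 33.1% of those of the antibacterial lectin Reg3g. They held 5.55% of the Muc4 UMIs and 1.43% of the Krt19 UMIs. Tff1 stood at 2503, 3150.2 and 3217 CPM in them and at 42.0, 0.399 and 3.00 CPM in the other 942, and Muc5b at 4829, 5942 and 3128 against 25.2, 1.20 and 5.42 CPM. By library the 21 cells held 55, 99.4 and 96.7% of the Tff1 UMIs, 79.7, 99.0 and 94.0% of the Muc5b UMIs, 38.8, 75.6 and 58.9% of the Itln1 UMIs, 18, 54.8 and 48.4% of the Spdef UMIs and 15.8, 37.7 and 38.4% of the Reg3g UMIs, with the lowest share of each in library 1. Over all luminal cells the log2 fold change of Tff1 against other Epcam-positive cells was 3.53 ± 0.51 (SE, adjusted p = 0.00324), and without the cells with a Muc5ac UMI it was 0.02 (adjusted p = 0.989). Muc5b turned from 0.85 (adjusted p = 0.0365) to -2.77 (adjusted p = 0.00188), and its rise was also lost without library 2 or 3 (0.70 and 0.53, adjusted p = 0.172 and 0.0521), without the library block (0.65), by DESeq2 (0.82), with cells matched in depth (1.14) and without doublets (0.75). Without the cells with a Muc5ac UMI 13 of 25 genes of the mucin list were higher and 2 lower (median 0.96). Against Scgb3a2-high cells 8 of 20 were then higher and 5 lower (median 0.03).

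**Figure D4:**
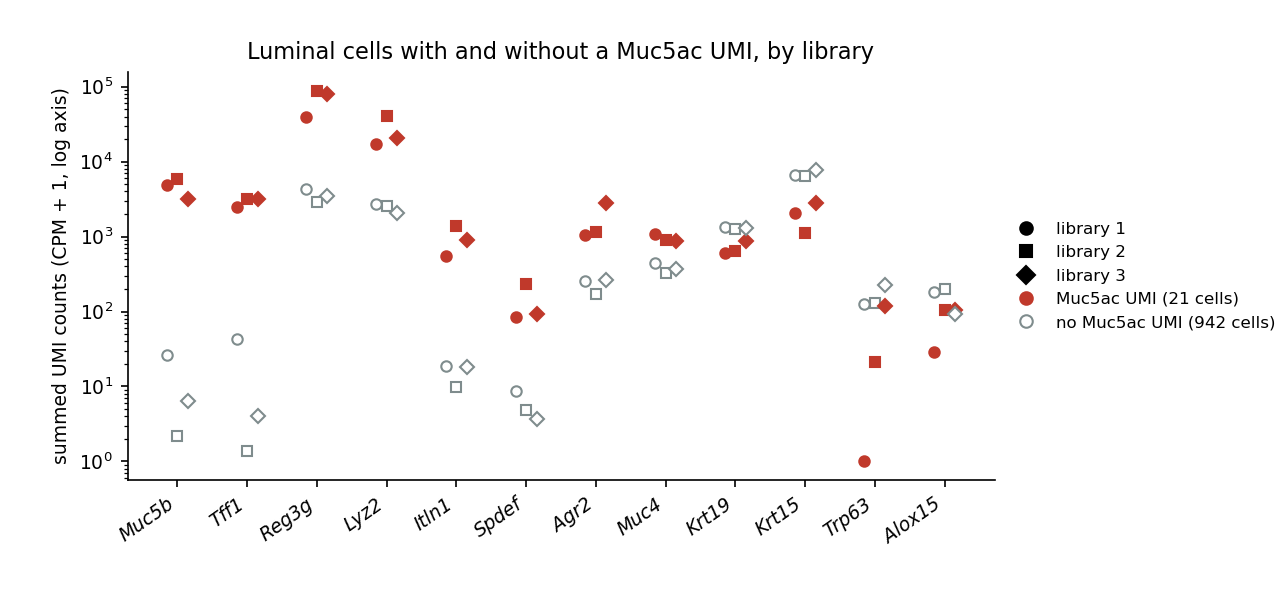
The plot gives the level of 12 genes in the 21 luminal cells with a Muc5ac UMI (filled) and the 942 without (open), in CPM plus 1 on a log axis, with 1 point per library. Tff1 and Muc5b lie far apart between the groups, with 2503, 3150.2 and 3217 against 42.0, 0.399 and 3.00 CPM for Tff1; the split was chosen after the values were seen.

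Single genes of airway secretions went in different directions. Reg3g stood at 4953, 4510.0 and 5476 CPM in luminal cells and 1325, 728 and 567 CPM in other Epcam-positive cells (2.74 ± 0.24, SE, adjusted p = 5.1e-04), and it remained 2.23 higher on the log2 scale without the cells with a Muc5ac UMI. Reg3g UMIs were found in 91.8, 90.4 and 91.7% of luminal cells, but also in 32.5, 15.9 and 24.1% of fibroblasts. A share at that level cannot be read as expression, and its source was not tested. Lyz2 was at 3039, 3269 and 2534 against 1664, 932 and 607 CPM (1.72 ± 0.21, adjusted p = 0.0018), and with cells matched in depth it was 1.03 (adjusted p = 0.0576). Bpifa1, an abundant airway surface protein, was at 13419, 6968 and 13046 against 14553, 7074 and 5402 CPM. The luminal value was the higher only in library 3, where the value of other Epcam-positive cells was lowest. Bpifa1 did not pass the test (0.51 ± 0.25, adjusted p = 0.178). Bpifb1, a relative of Bpifa1, was lower, at 19.7, 3.72 and 25.3 against 128, 87 and 419.7 CPM (-3.54 ± 0.28, adjusted p = 3.9e-04). The club cell secretoglobin Scgb1a1 was lower too, at 32.0, 16.8 and 7.39 against 629, 556 and 176 CPM (-4.47), and was found in 44.3, 26.1 and 15.4% of luminal cells beside 28.0, 15.9 and 9.01% of fibroblasts, whose depth was lower. Of the airway secretory list 9 of 21 genes were higher and 7 lower (median -0.04), and without the cells with a Muc5ac UMI 7 of 20 were higher and 8 lower (median -0.44).

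Of the V-ATPase subunits other than the gate genes, 11 of 22 were higher and 3 lower, with a median of 0.22 on the log2 scale. Against the groups described below, 6 of 21 were higher and 4 lower beside Scgb3a2-high cells. Beside Krt13-high cells 6 of 21 were higher and 3 lower, and beside Krt5-high cells 11 of 21 higher and 2 lower. The summed subunits were at 1838, 1780 and 2004 CPM in luminal and 1834, 1757 and 1840 CPM in other Epcam-positive cells. The proteolipid subunit Atp6v0c differed by 0.42 ± 0.05 (SE, adjusted p = 0.00204). Atp6v1c2, a tissue-restricted C subunit of the pump, was -2.83 ± 0.08 (SE), at 28.5, 32.1 and 16.3 CPM in luminal and 239, 277 and 109.6 CPM in other cells. Ionocytes are the rare airway cells best known for this pump. Of their markers, 2 of 13 genes were higher and 5 lower in luminal cells. Foxi1, the transcription factor that specifies ionocytes, had 0, 0 and 0.162 CPM. Summed over the ionocyte list, the level was 151, 146 and 135 CPM in luminal cells and 348, 369 and 214 CPM in other cells. Atp6v1c2 is on this list, and its values above account for the lower sum. The chloride channel Cftr, also on the list, was among the 2 higher genes. Against the Krt13-high cells described below, 4 of 7 ionocyte genes were higher and 0 lower. Against Scgb3a2-high cells 2 of 7 were higher and 2 lower, and against Krt5-high cells 2 of 9 higher and 3 lower.

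Among potassium channels besides Kcnj16, 6 of 23 were higher and 7 lower. The channel Kcnq1 and its regulatory subunit Kcne3, which together form a constitutively open basolateral channel in secretory epithelia, were both among those higher. Kcnq1 stood at 85.0, 83.3 and 47.2 CPM in luminal and 19.7, 14.9 and 8.90 CPM in other cells (2.47 ± 0.09, SE, adjusted p = 3.6e-05). Kcne3 was at 104, 82.0 and 76.5 against 13, 9.76 and 11.7 CPM (3.06 ± 0.09, adjusted p = 3.5e-05). Of ion, acid and water transport genes 18 of 49 were higher and 5 lower, and their median of 0.02 was close to that of all genes. The water channel of airway and gland cells, Aqp5, was 0.96 (adjusted p = 4.7e-04), and the chloride channel Cftr 1.62 (adjusted p = 0.00122, and 1.60 with adjusted p = 0.11 with cells matched in depth).

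Eicosanoid genes moved in both directions, 12 of 32 higher and 8 lower. Alox12, the platelet-type lipoxygenase, encoded close to Alox12e and Alox15, stood at 118, 111 and 90.7 CPM in luminal and 12.4, 16.0 and 15.7 CPM in other cells (2.98 ± 0.14, SE, adjusted p = 7.3e-05). Hpgds, a prostaglandin D synthase, was at 113, 135 and 129.6 against 22.6, 33.5 and 31.1 CPM (2.27 ± 0.08, adjusted p = 3.6e-05). Conjugating and ester-cleaving enzymes other than Sult1b1 and Ces1h were higher in 22 of 47 cases and lower in 8 (median 0.48). Their summed level was 10556, 10619 and 10093 CPM in luminal and 6088, 6099.6 and 6846 CPM in other cells, without overlap. Against the groups described below, 13 of 41 were higher and 12 lower beside Scgb3a2-high cells, and 21 of 44 higher and 10 lower beside Krt5-high cells. Beside Krt13-high cells 8 of 39 were higher and 6 lower, and the sums there, 8184, 10165 and 11986 CPM, overlapped the luminal ones. Of oxidising enzymes 24 of 46 were higher and 13 lower (median 0.52). Cyp2a5 was at 1612, 1708 and 813 against 519, 247 and 155 CPM (2.42 ± 0.20, adjusted p = 4.6e-04) and Cyp4a12a, a fatty acid hydroxylase, at 64.5, 42.6 and 26.8 against 2.37, 1.26 and 1.5 CPM (4.78). Organic anion and drug transporters other than Slco1a5 showed no common direction, 8 of 22 higher and 7 lower. Beside Scgb3a2-high cells 14 of 36 oxidising enzymes were higher and 11 lower (median 0.09). Their sums overlapped, at 17974, 18365 and 16372 CPM in luminal and 17348, 16218 and 16490 CPM in Scgb3a2-high cells. Beside Krt13-high cells 21 of 36 oxidising enzymes were higher and 7 lower, and beside Krt5-high cells 27 of 44 higher and 7 lower.

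Further genes were among the largest rises without being on any list. Wfdc1, a whey acidic protein family protease inhibitor, was 3.61 higher on the log2 scale, the serine protease Prss32 3.59, tissue plasminogen activator Plat 3.53, thiosulfate sulfurtransferase Tst 2.86 and the RNA methyltransferase relative Nsun7 2.78. The largest falls were in genes known from other cells. They included the neuropeptide gene Calca (-7.15), the gland genes Sbpl (-4.98), Lipf (-4.67) and Dcpp2 (-4.42), the GDNF co-receptor Gfra1 (-4.61) and the axoneme gene Rp1 (-4.27).

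Transcription factors were higher in 22 of 49 cases and lower in 15. Nkx2-1, the factor that specifies lung, trachea and thyroid, was lower, at 6.88, 8.02 and 8.12 CPM in luminal and 69.3, 57.1 and 84.3 CPM in other cells (-3.08 ± 0.12, SE, adjusted p = 3.9e-05). Ehf and Klf5, factors of epithelial differentiation, were 0.70 and 0.79 (adjusted p = 0.00107 and 0.00173). Of Notch pathway genes 5 of 20 were higher and 6 lower. Notch3, a receptor of early luminal cells in the airway, stood at 71.8, 82.3 and 61.7 CPM against 16.2, 14.0 and 18.0 CPM (2.28 ± 0.15, adjusted p = 1.8e-04). The ligand Dll1 was lower (-3.33, adjusted p = 7.3e-05).

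Of markers of other cells, most lists were low in the luminal group. The gland acinar sum was higher in every library, through Lyz2, and the thyroid sum in library 2, through 1 barcode. All 8 neuroendocrine genes together summed to 1.30, 0.978 and 1.38 CPM in luminal cells against 241, 131 and 17.3 CPM, and endothelial genes to 14.1, 3.72 and 1.46 CPM against 74.7, 5.17 and 6.74 CPM. Of ciliated cell genes 9 of 10 were lower and 1 higher, of tuft cell genes 2 of 4 lower, of muscle and pericyte genes 7 of 8 lower and of leukocyte genes 4 of 9 lower. Against the Krt13-high cells described below, 5 of 8 ciliated cell genes were higher and 1 lower. Against Krt5-high cells 5 of 10 were higher and 0 lower, and against Scgb3a2-high cells 1 of 10 higher and 0 lower. Fibroblast genes summed to 33.3, 25 and 86.5 CPM against 220.4, 48.8 and 254 CPM, with 5 of 7 lower. Gland acinar genes were lower in 4 of 7 cases and higher in 2. Their summed level was the higher in every library, 3805, 3916 and 3431 CPM against 2449.6, 1611 and 1623 CPM. Lyz2, whose levels are given above, made up most of the luminal sum, and the higher sum rests on it. Of thyroid genes 1 of 8 was lower, their summed level was 7.44, 399 and 3.00 CPM against 326, 267 and 41.9 CPM, and 1869 of the 1886 Tg UMIs of luminal cells in library 2 came from 1 barcode. Genes of S, G2 and M phases were lower in 3 of 25 cases and higher in 0. Genes that rise during tissue dissociation were higher in 7 of 19 and lower in 2 cases, and their part in the differences above was not tested.

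The luminal cells were then set beside the nearest Epcam-positive groups that the limits define. These were 1914 cells with at least 20 Scgb3a2 UMIs per 10000, a secretoglobin of airway secretory cells, 1046 with at least 20 UMIs of Krt13, a keratin of suprabasal squamous cells, and 11378 with at least 10 UMIs of the basal keratin Krt5 and under the limits of the other genes. Cells with 4 or more gate genes were left out of each group. In libraries 1, 2 and 3, Krt5-high cells were 1504, 1186 and 8688 of 6929, 4877 and 16285 other Epcam-positive cells. The make-up of the other Epcam-positive cells thus differed between libraries, and its part in the differences above was not tested. All 3 groups lie within the other Epcam-positive cells and are compared with the same luminal cells, so the comparisons are not independent of each other. Genes that defined a group were not tested in its comparison. Genes that go along with Scgb3a2, Krt13 or Krt5 can still differ through the choice of the cells. Counts of airway secretory, squamous and basal genes against the group chosen by such a gene therefore describe the groups. They are not independent evidence of a difference. The median log2 fold change over all genes was -0.01 against Scgb3a2-high and Krt5-high cells and -0.0044 against Krt13-high cells.

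Against Scgb3a2-high cells, 3877 of 13173 genes differed (29.4%), 1932 higher (14.7%) and 1945 lower (14.8%) in luminal cells, or 2236 without the library block and 2301 by DESeq2. Airway secretory genes were the lower ones, with 12 of 20 lower and 2 higher (median -1.05). Scgb1a1 stood at 32.0, 16.8 and 7.39 CPM in luminal and 5592, 10298 and 2211 CPM in Scgb3a2-high cells (-8.34 ± 0.28, SE). Nkx2-1 was at 101, 103 and 149 CPM there (-4.05 ± 0.10, adjusted p = 3.0e-07), far above each luminal library. Bpifa1 (-2.54, which did not pass by DESeq2, adjusted p = 0.115), the oxidase Cyp4b1 (-3.81), the sulfotransferase Sult1d1 (-3.45) and the V-ATPase subunit Atp6v1b1 (-3.61) were lower in luminal cells as well. Higher were squamous genes, 13 of 16 with 2 lower, and luminal epithelium genes, 20 of 26 with 2 lower. Prss32 (6.14), Plac8 (3.40), the serine protease Tmprss11b of the squamous list (3.28), the apical sorting protein Mal (2.89) and Hpgds (2.87) were higher. Tff1 (7.15), whose UMIs lie mostly in the cells with Muc5ac, was higher too. The foregut factors Gata3 (3.47), Foxe1 (2.11) and Foxq1 (2.00) were higher in luminal cells. Dissociation genes were higher in 14 of 19 and lower in 0 cases, and their part in these differences was not tested.

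Several genes high in luminal cells did not pass the test against Scgb3a2-high cells. Muc16 stood at 847, 576 and 578 CPM in Scgb3a2-high cells, a log2 difference of 0.00 with an SE of 0.07 (adjusted p = 1). Cyp2a5 was at 1929, 1510.3 and 669 CPM (-0.02 ± 0.11, adjusted p = 0.937) and Reg3g at 4944, 3273 and 1744 CPM (0.61 ± 0.28, adjusted p = 0.138). Each of these calls depended on a choice, since Reg3g passed without library 1 (1.01, adjusted p = 0.0441), and with at least 3 gate genes Muc16 and Cyp2a5 were lower in luminal cells (-0.29 and -0.31, adjusted p = 0.00849 and 0.00443), while without the luminal cells at the Krt5 limit Muc16 was higher (0.36, adjusted p = 0.0492). Muc4, in contrast, was 2.68 ± 0.20 higher in luminal cells, at 94.2, 53.9 and 37.8 CPM in Scgb3a2-high cells, and Krt19 0.56 ± 0.06 higher.

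Against Krt13-high cells, 4455 of 12513 genes differed (35.6%), 2267 higher (18.1%) and 2188 lower (17.5%). Squamous differentiation genes were lower in 17 of 21 cases and higher in 1 (median -1.92). The wound keratin Krt16 (-7.23), Krtdap (-6.69) and the galectin Lgals7 (-5.71) were among them, and Krt14 was -4.64 with 32.7, 26.2 and 131 CPM in luminal and 1597, 780.2 and 1479.8 CPM in Krt13-high cells. Mucins and their regulators were higher in 18 of 22 and lower in 1 cases, and without the cells with a Muc5ac UMI higher in 12 of 21 and lower in 1. Reg3g (7.10), the organic anion transporter Slco4c1 (6.20), Lyz2 (5.92), Muc16 (5.13), Bpifa1 (5.25) and Kcnq1 (4.67) were higher in luminal cells. Genes of S, G2 and M phases were lower in 15 of 24 and higher in 0 cases, and summed to 159, 149.8 and 312 CPM in luminal against 526, 314 and 539.9 CPM in Krt13-high cells. Krt15 (-0.05 ± 0.18, adjusted p = 0.841) and Notch3 (0.36 ± 0.18, adjusted p = 0.169) did not pass the test. Neither did Upk1b and Aqp5, which were 0.20 and 0.22 without the cells with a Muc5ac UMI (adjusted p = 0.31 and 0.517). Aqp5 passed without library 3 (0.61, adjusted p = 0.0206). Without library 3, Notch3 was 0.67 (adjusted p = 0.0181), and without library 2 or 3 the number of genes that differed was 2780 and 2855.

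Against Krt5-high cells, 6094 of 14879 genes differed (41% of those tested), 3223 higher (21.7%) and 2871 lower (19.3%). Luminal epithelium genes were higher in 24 of 26, mucins in 22 of 23, and basal genes lower in 16 of 17, with 0, 0 and 1 in the opposite direction and medians of 1.39, 3.25 and -1.35. Without the cells with a Muc5ac UMI 19 of 22 mucin genes were higher, with a median of 2.31. Krt8 stood at 432, 364 and 477 CPM in luminal and 89.8, 94.6 and 105 CPM in Krt5-high cells (2.23 ± 0.07, SE). Trp63 was at 123, 128 and 224 against 891, 792 and 886 CPM (-2.37 ± 0.15). The claudin Cldn3 (3.00), the immunoglobulin transporter Pigr (5.23), the choline transporter-like Slc44a4 (4.35) and the retinaldehyde dehydrogenase Aldh1a1 (2.42) were higher. Of 19 Notch pathway genes 5 were higher and 7 lower (median -0.07), among them the receptor Notch3 (2.76), the target Hey1 (2.06) and the ligands Jag2 (-2.24) and Dll1 (-3.78). Genes of S, G2 and M phases were lower in 20 of 25 cases and higher in 0.

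**Figure D5:**
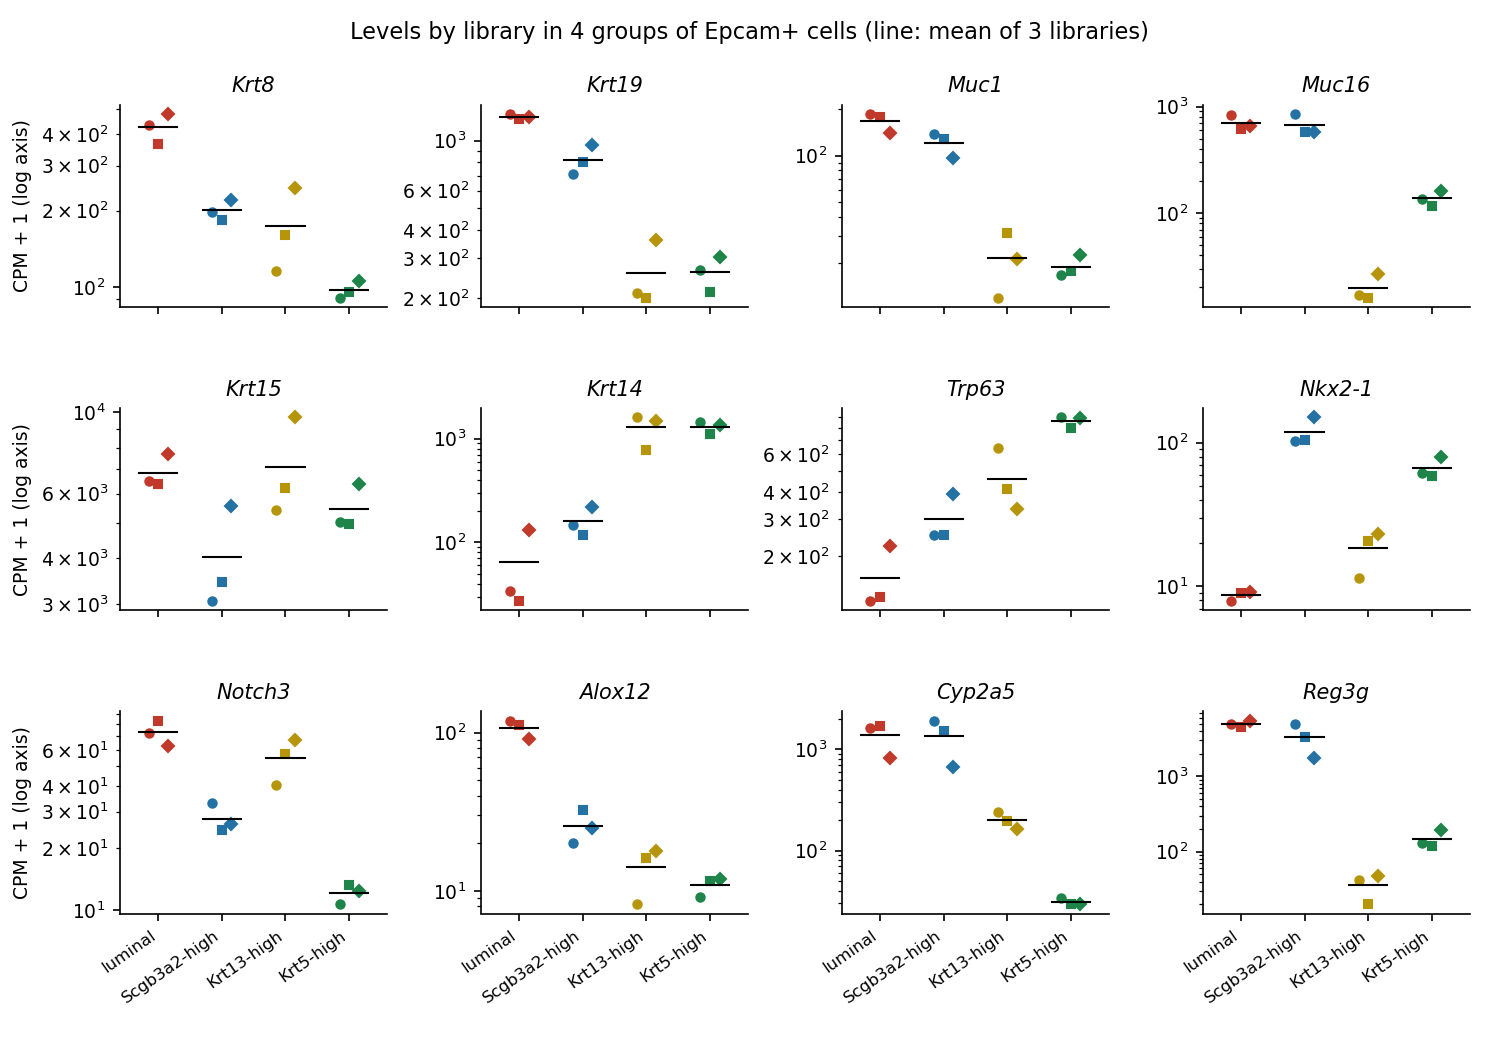
Levels of 12 genes in luminal, Scgb3a2-high, Krt13-high and Krt5-high cells are plotted in CPM plus 1 on a log axis, with 1 point per library and a line at the mean. Luminal cells had the highest Krt8 and Krt19 (1309.8, 1248 and 1275 CPM), while their Krt15 overlapped that of Krt13-high cells at 6489, 6351 and 7672 against 5400.0, 6231 and 9683 CPM.

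Lrig1 is the gene whose Cre labelled the sorted cells. It encodes a membrane protein that restrains ErbB receptors and marks stem cells of several epithelia. It was not part of the rule. Lrig1 stood at 105, 113 and 122 CPM in luminal cells, a mean of 113 ± 8.39 (SD, n = 3), and at 77.9, 87.9 and 90.9 CPM in other Epcam-positive cells, a log2 fold change of 0.55 ± 0.05 (SE, adjusted p = 6.8e-04). In order, the level was next highest in Krt5-high cells (82.9 ± 7.97 CPM), then Scgb3a2-high (64.0 ± 5.90) and Krt13-high cells (49.9 ± 9.11), and the luminal libraries exceeded those of each group. Against these groups the log2 differences were 0.55 ± 0.05, 0.74 ± 0.06 and 1.16 ± 0.10 (adjusted p = 5.8e-05, 7.5e-05 and 3.0e-04). Ranges of Scgb3a2-high and Krt13-high cells, 60.4, 60.7 and 70.8 and 40.0, 58.0 and 51.7 CPM, did not overlap but were close, and their difference was not tested. Endothelial cells had 10.6 CPM and fibroblasts 46.6 CPM.

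A Lrig1 UMI was found in 75, 85.6 and 84.7% of luminal cells and in 51, 65.1 and 58.9% of other Epcam-positive cells, a difference of 23.5 ± 2.67 percentage points (SD, n = 3 libraries; exact sign-flip permutation test, two-sided, p = 0.25, the smallest that 3 libraries allow). The luminal share was higher in 3 of 3 libraries. In the cells thinned to 5000 UMIs, without those under that depth, the shares were 37.8, 45.1 and 43.8% against 29.7, 33.4 and 34.1%, a difference of 9.84 ± 1.81 points in the same direction. In endothelial cells, at a median of 5362 to 7841 UMIs, 7.36, 10.0 and 12.9% of cells had a Lrig1 UMI. Of the ErbB pathway and Lrig genes 5 of 16 were higher and 4 lower in luminal than in other Epcam-positive cells, with a median of -0.06.

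The study compared cells with and without Lrig1 transcripts, and the same was done within the luminal cells, with 183, 161 and 450 cells that had a Lrig1 UMI and 61, 27 and 81 that had none. The former were deeper, at median UMIs of 25694, 28282 and 24041 against 14017, 25035 and 16877. Of 11440 genes 61 differed (0.533%), 10 higher (0.0874%) and 51 lower (0.446%) in cells with a Lrig1 UMI. Higher were Trp63 (0.71 ± 0.12, SE, adjusted p = 0.0182), the guidance receptor Robo1 (0.60) and the siderophore-binding protein Lcn2 (2.67), whose 443 UMIs came from 77 luminal cells. The basal keratin Krt14 was lower, at 31.7, 25.6 and 108.5 against 37.8, 30.6 and 302 CPM (-1.06 ± 0.21, adjusted p = 0.0444), a call that was lost by DESeq2 (-0.85), without library 3 (-0.31), without doublets (-0.57), with at least 5 or 3 gate genes (-0.21 and -0.66) and without the luminal cells at the Krt5 limit (0.11). Of the 17 basal genes tested 2 were higher and 1 lower. Lower were the surface mucins Muc21 (-1.63), Muc1 (-0.69) and Muc4 (-0.55 ± 0.11, adjusted p = 0.0407), whose call was lost at -0.51 without library 3 (adjusted p = 0.11) and at -0.47 and -0.52 with at least 5 or 3 gate genes, Plat (-1.73), and the inflammatory genes Cxcl2 (-3.50), Csf3 (-4.24), Tnfaip3 (-1.90) and Ccl20 (-1.76). Cxcl2 was found in 9 luminal cells, Csf3 in 26 and Ccl20 in 54, so these differences rest on few cells. Lcn2 turned to -0.0174 with at least 3 gate genes and Ccl20 to 0.66 with at least 5. With at least 5 gate genes Muc21 (-0.94), Tnfaip3 (-1.23) and Trp63 (0.67) lost the call. With at least 3, Trp63 (0.74), Robo1 (0.59), Cxcl2 (-3.00), Tnfaip3 (-1.81) and Plat (-1.53) lost it, and Plat (-1.71) also by DESeq2. With cells matched in depth Trp63 (0.46), Robo1 (0.45), Muc4 (-0.71), Plat (-1.09) and Ccl20 (-0.56) kept their direction but lost the call. Without the library block no gene passed by edgeR (760 at an unadjusted p under 0.05), and with cells matched in depth 20 did, all lower, while DESeq2 called 59. Without library 1, 2 or 3 the number was 205, 182 and 124. Of the 21 mucin genes tested 5 were lower and 0 higher (median -0.95 beside -0.00 over all genes), and without the cells with a Muc5ac UMI 6 of 19 were lower (median -0.63).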

How the data were processed

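Single-cell RNA sequencing (GEM-X 3′ chemistry) was measured in 3 libraries. The authors made UMI counts per gene and barcode with Cell Ranger 8.0.1 on mm39, and deposited them as whole numbers without normalization. The cell limits and doublet removal that the study describes are not applied in the deposited counts. The study's methods give 500 to 8000 as the limits of UMI counts and 1000 to 40000 as those of genes. Here they were applied the other way round, to genes and to UMIs, together with the gate, and no cell was removed as a doublet, except in an alternative that removes cells with a high share of simulated doublets among their neighbours. The members and the gene lists were chosen with earlier results of these data known.

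Within each library the UMI counts of a group of cells were added up, and the sums were tested with edgeR 4.0.16 (R 4.3.3; TMM, filterByExpr, quasi-likelihood F-test, two-sided, Benjamini-Hochberg adjustment over all genes tested, threshold 0.05) with the library as a block, since the sums set against each other come from 1 pool of mice. Deviations of the paired sums from their group means correlated at 0.014 to 0.453 across genes. Cells were clustered with scanpy 1.11.5 (2000 variable genes, 15 components, 15 neighbours, Leiden resolution 1). Endothelial cells and fibroblasts were barcodes without an Epcam UMI that carried markers of those types.

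Genes named were the gate and marker genes, the 12 largest rises and 8 largest falls per comparison (at least 50 CPM, same direction in every library), and per list the 4 highest genes and those past a log2 fold change of 2 at 20 CPM or more, with 10 changes each way for Lrig1. Trp63 and Muc5b against other Epcam-positive cells, Notch3 against Krt13-high cells, Muc1 and Muc4 in the Lrig1 comparison, and Foxi1, were named after their values were seen. The splits by Krt5 and Muc5ac were chosen after seeing the data. Alternatives were DESeq2 1.42.0, no block, no filter on low counts, each library left out, cells matched in depth, doublets removed and other gates.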

Additional observations from a re-analysis of the deposited data

How the results depend on the processing

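The library was the block of every edgeR test, because the paired sums of a library share mice. Without this pairing 3538 genes instead of 5718 differed between luminal and other Epcam-positive cells, 2236 instead of 3877 against Scgb3a2-high cells, and 0 instead of 61 between luminal cells with and without a Lrig1 UMI. Leaving out each library gave 3438 to 5502, 2617 to 3292, 2780 to 4380 and 4737 to 5602 genes in the comparisons with other Epcam-positive, Scgb3a2-high, Krt13-high and Krt5-high cells, and 124 to 205 in the Lrig1 comparison. Matching cells in depth gave 3067 genes against other Epcam-positive cells and 20 in the Lrig1 comparison, where fewer UMIs were left, and DESeq2 gave 2301 against Scgb3a2-high cells. The Lrig1 comparison was the least stable, with 266 genes without a filter on low counts (83 higher, 183 lower), 105 without doublets, 24 with at least 5 and 36 with at least 3 gate genes. In it Ccl20 turned to 0.66 with at least 5 gate genes, Lcn2 to -0.0174 with at least 3, and Krt14 to 0.11 without the luminal cells at the Krt5 limit. The cause was not tested. Against other Epcam-positive cells Muc5b turned to -2.77 without the cells with a Muc5ac UMI, which carry most of its UMIs. The share of luminal cells, 3.42%, was 1.17% in cells of at least 5000 UMIs thinned to that number, 1.76% with at least 5 and 6.26% with at least 3 gate genes, 3.80% without the quality limits and 3.84% with at least 2 Epcam UMIs. It was 3.28 to 3.56% without each library. The share of luminal cells in 1 cluster, 73.4%, was 84.3% at resolution 0.5 and 40.0% at resolution 2. The difference in cells with a Lrig1 UMI was 22.3 to 24.9 points without each library and 4.81 points at 2000 UMIs per cell. Of 96 named genes against other Epcam-positive cells, 12 of the 94 that could be fitted lost the call with cells matched in depth and 8 without the block.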
